A study of Mus musculus with 4 samples.

Results

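The IL-6 cytokine family and its shared signalling chain gp130 were examined in differentiating 3T3-L1 cells through 10 genes taken from a list: the ligand genes Il6, Il11, Lif and Clcf1, the receptor genes Il6st (gp130 itself), Lifr, Osmr and Il11ra1, the transcription factor gene Stat3 and the feedback inhibitor gene Socs3. All probe sets that the platform annotation assigns to 1 of these genes alone were taken. Of the 10 genes, 9 had such a probe set, out of 18194 named genes on the array, and they shared 24 probe sets. Expression of Il11ra1 was not analysed here, and only its promoter enters below. The genes were chosen by their family and with the log2 differences of these same 4 arrays from control already known, so those differences are given below as a description.

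Cytokines of this family bind receptor complexes that contain gp130. IL-6 and IL-11 each use a receptor of their own together with gp130, LIF joins gp130 to the LIF receptor, and oncostatin M joins it to the oncostatin M receptor. Kinases of the JAK family bound to these chains phosphorylate STAT3, which enters the nucleus and activates genes that include Socs3, whose product binds gp130 and shuts the kinases off. In fat tissue the family is known for inflammatory signalling, and some of its members for restraining the conversion of precursor cells. IL-11 was also isolated under the name adipogenesis inhibitory factor.

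The 3T3-L1 line consists of mouse embryonic fibroblasts that become fat cells under a hormone mixture of insulin, dexamethasone and isobutylmethylxanthine, added here to medium with 25 mM glucose and 10% serum. Of 4 cultures, the first received a control siRNA (siGL3), the next an siRNA against Aof2, the older name of Kdm1a, which encodes the histone demethylase LSD1, and another an siRNA against Rfk, which encodes riboflavin kinase. These were induced 24 h after transfection and harvested 24 h later. The last had tranylcypromine (TC), a drug that blocks LSD1 and monoamine oxidases, in its induction medium, and was also harvested 24 h after induction. For that culture the labels name no siRNA and no dose, and if it was not transfected, drug and transfection cannot be told apart in its comparison with control. Each culture went onto 1 array, so there are no replicates, no test and no error across cultures for any value below, and "higher" or "lower" is said of single arrays. Where 4 signals are listed without labels, they follow the order control siRNA, then aof2 siRNA, then rfk siRNA, then TC, and where 3 differences from control are listed, the treated arrays come in that order.

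Knockdown was visible on both siRNA arrays. Kdm1a stood at 19.5% of control with aof2 siRNA and Rfk at 27.0% of control with rfk siRNA. Array medians lay between 53.3 and 56.2 on the MAS5 signal scale, which is a linear probe set brightness. A gene was compared if its mean over the arrays was at least 50.9, the midpoint of all probe sets, and 10788 genes were. All 7 measured fibroblast markers passed this filter, led by Col1a2, and their summed signal ranged from 60393 to 67048, a sum dominated by Col1a2 and Col3a1. Of 7 fat cell markers 4 passed, led by Lpl, while the other 3 (Adipoq, Cd36 and Cidec) did not, in cells that the labels call differentiating adipocytes. Adipoq, the adiponectin gene, ranged from 4.32 with control siRNA to 22.0 with TC. Cd36 (33.4, 17.2, 26.2 and 23.7) and Cidec (38.5, 29.1, 4.94 and 6.41) were instead highest with control siRNA. The signals of all 7 summed to 8950, 6372, 6856 and 5836, a sum dominated by Lpl and Fabp4. Of 8 macrophage markers 2 passed (Cd14 and Csf1r), of 6 lymphocyte markers 1 (Cd8a), of 6 endothelial markers 1 (Kdr) and of 5 epithelial markers 2 (Epcam and Krt19). The leukocyte gene Ptprc had signals of 3.44, 22.4, 22.1 and 26.2, below the filter. Of the other macrophage markers below it, Mrc1 (25.7, 3.43, 13.7 and 12.2) and Lyz2 (63.2, 53.4, 30.2 and 32.8) were highest with control siRNA. Adgre1, Cd68 and Itgam lay on both sides of control.

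Across the family, Il11 was lower than control in each treated array, Lifr was higher with rfk siRNA, Socs3 was lower with rfk siRNA, and Il6st and Stat3 differed little. Of the 9 genes 8 passed the filter, the exception being Lif, and 6 were also above a signal of 414, the 75th percentile. With aof2 siRNA 1 of the 8 (Il11) was at least 2-fold lower, where 0.538% of all compared genes were, and 0 were at least 2-fold higher, against 1.61%. With rfk siRNA the counts were 1 lower (Il11), against 0.806%, and 0 higher, against 0.927%. With tranylcypromine they were 1 lower (Il11 again), against 0.945%, and 0 higher, against 2.23%. At a 1.5-fold threshold 1 of the 8, Lifr, was higher with rfk siRNA, against 3.92% of all compared genes. The median log2 differences of the 8 genes were -0.01, 0.06 and -0.14, beside -0.0041, -0.0089 and -0.016 for all compared genes. The 3 comparisons share the single control array.

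**Figure D1:**
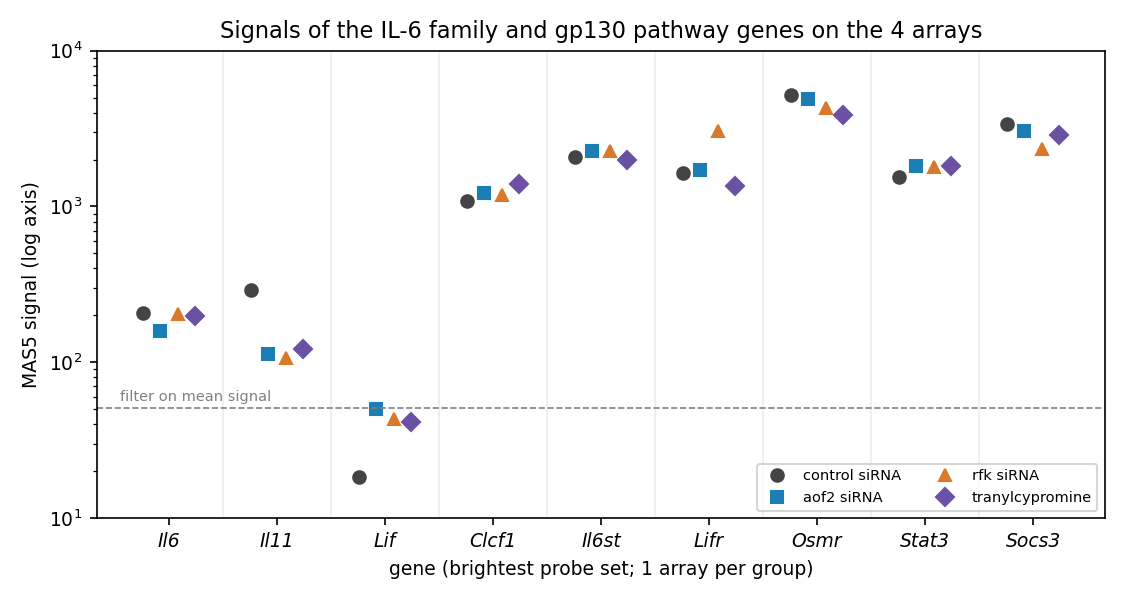
MAS5 signal (log axis) of the brightest probe set of each of the 9 genes, with 1 point for each of the 4 arrays and the filter of 50.9 as a dashed line; levels are to be compared between arrays and not between genes. Il11 is at 289 in the control array and at 107 to 121 in the others, and Lifr is at 3061 with rfk siRNA and at 1344 to 1727 in the others.

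Among the ligands, Il11 showed the widest difference. Its single probe set gave signals of 289 with control siRNA, 112 with aof2 siRNA, 107 with rfk siRNA and 121 with tranylcypromine. The control array was thus high and the 3 treated arrays lay close together, with no more than 0.18 on the log2 scale between any pair of them. Against control the log2 differences were -1.37, -1.44 and -1.26, or 2.58-fold, 2.71-fold and 2.39-fold lower. They ranked 25th, 22nd and 49th from the lowest among 10788 genes. Between the filter and the 75th percentile of signal, where Il11 lies, the central 90% of the 3915 genes spanned -0.62 to 0.86, -0.70 to 0.71 and -0.78 to 0.94 in the same order. Several cell type markers differed from control as well. Of the 7 fibroblast markers, each at its brightest probe set, Col1a1 was lower in each treated array (-0.55, -1.01 and -0.98). Col3a1 was at -0.01, -0.12 and -0.33, with another probe set at 0.13 with aof2 siRNA. Pdgfrb was at -0.06, -0.37 and -0.30, with another probe set at 0.37 with tranylcypromine. Pdgfra and Dlk1 were higher in each, while Col1a2 and Thy1 lay on both sides of control. Of the 4 fat cell markers above the filter, Fabp4 was lower in each treated array (-0.92, -1.64 and -1.17), as was Pparg (-0.12, -0.77 and -0.44). Lpl was lower with aof2 siRNA (-0.43) and tranylcypromine (-0.47) but not with rfk siRNA (0.01), and Cebpa was higher in each (0.56, 0.03 and 0.28). The endothelial marker Kdr, at 29.0, 57.7, 69.3 and 70.5, was higher in each treated array. Below the filter Pecam1, Tie1 and Emcn were also higher in each, while Cdh5 and Tek lay on both sides of control. The epithelial marker Krt19, at 100.1, 267, 101 and 444, was higher with aof2 siRNA and tranylcypromine. Epcam was higher in each (0.50, 0.17 and 0.17), as was Krt18 below the filter, while Cdh1 and Krt8 lay on both sides. Cd8a was lower in each (-0.34, -0.76 and -0.13). Cd14 (0.07, -0.72 and 0.48) and Csf1r (0.10, -0.11 and 0.13) lay on both sides of control. The part of these markers in the Il11 difference was not tested. In bulk RNA, fewer cells that express a gene and less RNA per cell cannot be told apart.

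The Il11 difference rests on 1 control array and 1 probe set. Against the mean of the 3 other arrays, in place of the control alone, Il11 stood at -0.47 with aof2 siRNA, -0.56 with rfk siRNA and -0.32 with tranylcypromine, short of 2-fold. That reference includes the other treated arrays, so a difference shared by them must shrink against it. It therefore cannot show how firm the difference from control is. With an offset of 50 added to each signal the tranylcypromine difference was -0.99, also short of 2-fold.

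The genes nearest to Il11 in their 3 log2 differences from control, among 6873 genes above the 75th percentile of signal, were Fabp4, Plod2 and Tmem201. Likeness was the Euclidean distance over these 3 differences, which share the control array. Fabp4, the fatty acid binding protein gene of fat cells, had signals of 2463, 1301, 791 and 1093 (distance 0.496). Plod2, which encodes a collagen lysine hydroxylase, had 2053, 1194, 874 and 1027 (distance 0.671). Tmem201, a nuclear membrane protein gene, had 717, 312, 382 and 466 (distance 0.845). In each of them the control array was the highest of the 4, as in Il11, by whose values they were found.

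Il6, the founding member of the family, had signals of 205 with control siRNA, 158 with aof2 siRNA, 204 with rfk siRNA and 199 with tranylcypromine. Only the aof2 siRNA array was apart, at a log2 difference of -0.38, and 20.5% of all compared genes lay at least as far from 0 there. With rfk siRNA the difference was -0.01 and with tranylcypromine -0.05. The Il6 and Il11 patterns were therefore unlike: the 3 treated arrays were below control by more than 2-fold for Il11, and 2 of them were within 0.05 of control for Il6.

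Lif, the leukaemia inhibitory factor gene, was too dim to compare. Its brighter probe set gave signals of 18.4, 50.1, 43.0 and 41.1, with log2 differences of 1.44, 1.22 and 1.16. Its other probe set gave 6.36, 4.96, 22.5 and 10.7, with differences of -0.36, 1.82 and 0.76. The pair disagreed in direction for aof2 siRNA, and each had a mean below the filter.

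Clcf1, which encodes cardiotrophin-like cytokine factor 1, a ligand that acts through gp130 and the LIF receptor, had signals of 1091, 1227, 1193 and 1394 at its brightest probe set. The TC array was the highest. Over its 3 probe sets the log2 differences were -0.01 to 0.36 with aof2 siRNA, -0.26 to 0.13 with rfk siRNA and 0.35 to 0.45 with tranylcypromine. Only in the TC array did all 3 lie on the same side of control by more than 0.3, and 28.9% of all compared genes lay at least as far from 0 there as its brightest probe set.

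The DNA just upstream of the ligand genes is shown because Il11, Il6 and Lif each held a match to the AP-1 letters TGANTCA. AP-1 is the Fos and Jun transcription factor that growth and stress signals activate. The windows run from 250 bases before to 50 bases after a RefSeq transcription start on GRCm38.p6, 5′ to 3′ on the gene's own strand. Capitals mark matches, on either strand, to TGANTCA, to a loose NF-kappa-B consensus (3 G, then 5 bases of any kind, then 2 C) or to TTCNNNGAA (STAT). The Il11 window covers chr7:4778092-4778391 on the minus strand, that of Il6 chr5:30012864-30013163 on the plus strand and that of Lif chr11:4257318-4257617 on the plus strand.
Il11: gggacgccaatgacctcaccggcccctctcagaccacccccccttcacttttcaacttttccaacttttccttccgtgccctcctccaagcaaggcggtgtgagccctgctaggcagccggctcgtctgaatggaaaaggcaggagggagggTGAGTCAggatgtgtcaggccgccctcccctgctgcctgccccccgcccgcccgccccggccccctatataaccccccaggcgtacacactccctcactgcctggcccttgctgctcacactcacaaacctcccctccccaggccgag
Il6: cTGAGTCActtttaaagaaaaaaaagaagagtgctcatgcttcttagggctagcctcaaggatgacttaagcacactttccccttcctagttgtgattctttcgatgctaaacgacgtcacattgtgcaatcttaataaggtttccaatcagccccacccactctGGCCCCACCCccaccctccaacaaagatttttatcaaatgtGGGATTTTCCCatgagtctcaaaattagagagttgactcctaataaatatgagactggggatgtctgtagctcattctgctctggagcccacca
Lif: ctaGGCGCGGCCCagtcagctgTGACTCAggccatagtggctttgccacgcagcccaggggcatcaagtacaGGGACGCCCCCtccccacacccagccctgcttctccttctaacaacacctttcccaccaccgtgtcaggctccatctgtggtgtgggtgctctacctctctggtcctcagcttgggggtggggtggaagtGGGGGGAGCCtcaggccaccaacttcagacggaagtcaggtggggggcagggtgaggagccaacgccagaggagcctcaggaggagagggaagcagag
The AP-1 match began 98 bases before the start of Il11, 249 before that of Il6 and 228 before that of Lif. In Il6 an NF-kappa-B match, GGGATTTTCC, began 44 bases before the start. Il11 has a further listed start, whose window held an NF-kappa-B match and no AP-1 match. Windows were found for 9 of the 10 listed genes, 12 windows in all, and the remaining gene is Clcf1. AP-1 letters were in 4 of the 12 (Osmr was the other), beside 7.81% of all 32851 windows in the table. NF-kappa-B letters were in 9 of the 12, beside 50.8% of all windows, and they overlap one another where capitals run longer than a single match. The cAMP response element TGACGTCA (1.79% of all windows) and TATAAA (13.6%) were in 0 of the 12. A match describes letters only.

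Among the receptors, Lifr, the LIF receptor gene, was higher with rfk siRNA at each of its 3 probe sets. The brightest gave signals of 1642 with control siRNA, 1727 with aof2 siRNA, 3061 with rfk siRNA and 1344 with tranylcypromine. The rfk siRNA array stood alone, and the TC array was the lowest. Against control the log2 differences were 0.07, 0.90 and -0.29, the second being 1.86-fold and ranked 147th from the highest of 10788. The other probe sets gave signals of 159, 181, 243 and 172, and of 51, 66.5, 82.9 and 54.8. In both of these the rfk siRNA array was again the highest and the control array the lowest, with log2 differences of 0.61 and 0.70 for rfk siRNA.

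Lifr with rfk siRNA was also compared with arrays other than the control. At the brightest probe set it was 1.77-fold above aof2 siRNA and 2.28-fold above tranylcypromine. In the latter comparison 1.35% of all compared genes were at least 2-fold higher. Lifr was the 1 of the 8 genes in that group, at a log2 difference of 1.19 by its brightest probe set. At its other probe sets it was 1.34-fold and 1.25-fold above aof2 siRNA, and 1.41-fold and 1.51-fold above tranylcypromine. In the tranylcypromine array the probe sets of Lifr disagreed in direction against control, from -0.29 to 0.11, so no direction is given there.

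Genes above the 75th percentile of signal nearest to Lifr in their 3 differences from control were Rab12, Il18 and Sox9, by the same distance. Rab12, a small GTPase gene, had signals of 526, 569, 825 and 446 (distance 0.258). Il18, an interleukin gene of another cytokine family, had 427, 502, 718 and 392 (distance 0.275). Sox9, a transcription factor gene of precursor cells, had 915, 1023, 1491 and 862 (distance 0.294). Each was highest with rfk siRNA and lowest with tranylcypromine, as was the brightest probe set of Lifr, by whose values they were found.

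Il6st, which encodes gp130, had signals of 2074, 2259, 2273 and 1986. The arrays lay within 0.19 of each other on the log2 scale, and a further bright probe set, at 2004, 2023, 2120 and 1940, within 0.13. Across the 3 probe sets above the filter the log2 differences from control were 0.01 to 0.12, 0.08 to 0.13 and -0.19 to -0.05. Its remaining, dim probe set with signals of 26.4, 55.2, 6.83 and 33.9 gave log2 differences down to -1.95 and shows no direction.

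Osmr, the oncostatin M receptor gene, had signals of 5236, 4889, 4270 and 3865, so that the control array was the highest and the TC array the lowest. The log2 differences were -0.10, -0.29 and -0.44. Its second probe set, at 144, 141, 160 and 112, also gave a lower signal with tranylcypromine (-0.36) but a higher one with rfk siRNA (0.15). Its remaining probe set lay below the filter and gave 0.54 with tranylcypromine. In the TC array 20.9% of all compared genes lay at least as far from 0 as the brightest probe set of Osmr.

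**Figure D2:**
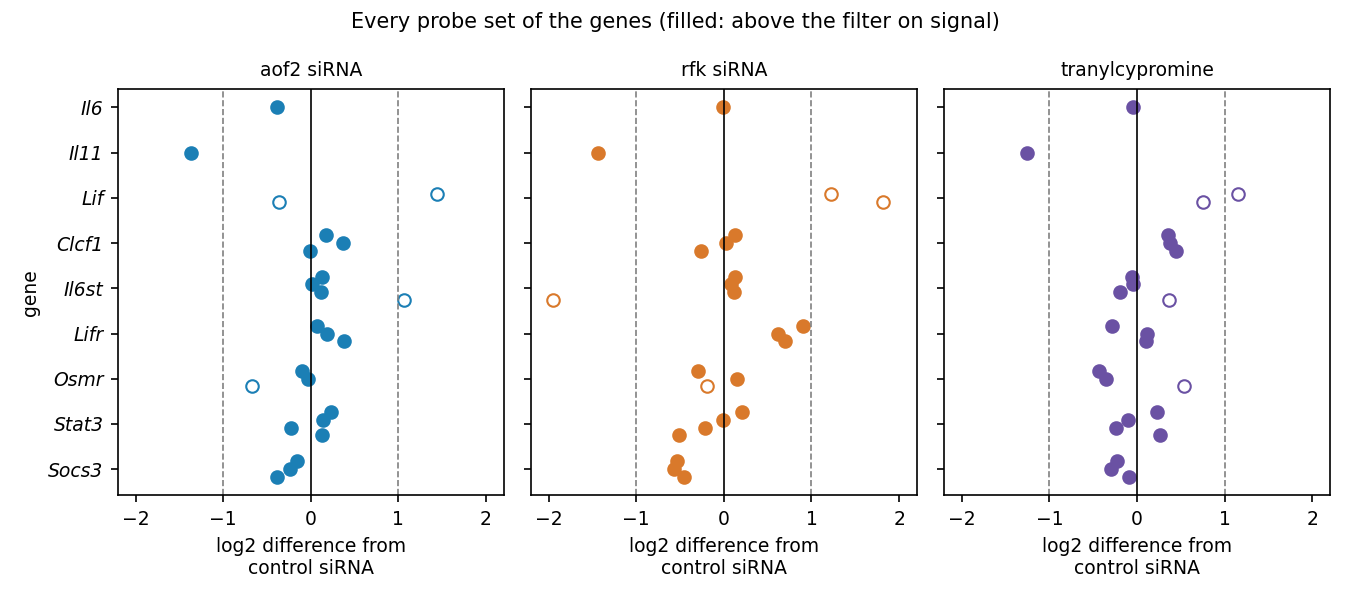
Log2 difference from control siRNA for each of the 24 probe sets in the 3 treated arrays, filled where the mean signal passed the filter, with dashed lines at 2-fold. The only filled points past 2-fold are those of Il11, the 3 filled points of Lifr lie between 0.61 and 0.90 with rfk siRNA, and the open points of dim probe sets scatter widely.

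Stat3, the transcription factor that gp130 activates, had signals of 1554, 1821, 1787 and 1824 at its brightest probe set, with the control array the lowest by 0.20 to 0.23 on the log2 scale. A second probe set of similar brightness, at 1713, 1893, 1705 and 1602, gave 0.14, -0.01 and -0.10. The probe sets agreed on a direction in none of the 3 arrays, since dimmer ones gave -0.23, -0.51 and -0.24 at the lowest.

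Socs3, the feedback inhibitor that STAT3 induces, was lower than control at each of its 3 probe sets in each treated array. The brightest gave signals of 3390, 3046, 2335 and 2897. A second gave 1750, 1479, 1176 and 1422, and the dimmest 675, 515, 493 and 634. The rfk siRNA array was the lowest at all 3, with log2 differences of -0.45 to -0.57. With aof2 siRNA they were -0.15 to -0.39 and with tranylcypromine -0.09 to -0.30. With the remaining arrays averaged as reference the brightest probe set was still lower with rfk siRNA (-0.41) but stood at 0.10 with aof2 siRNA and 0.0042 with tranylcypromine. That reference includes the other treated arrays, which were themselves below control. At the brightest probe set the rfk siRNA array was at 68.9% of control, short of 1.5-fold. It was lower by 0.38 than the aof2 siRNA array and by 0.31 than the TC array. Of all compared genes 4.61% lay at or below its difference from control, and 9.28% lay at least as far from 0. The brighter pair of probe sets may share probes with other transcripts by their naming, and the dimmest does not.

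The promoter window of Socs3 is shown because it held the only match to the STAT letters TTCNNNGAA among the 12 windows, beside 8.30% of all windows. It covers chr11:117969317-117969616 on the minus strand of GRCm38.p6, with the same use of capitals.
Socs3: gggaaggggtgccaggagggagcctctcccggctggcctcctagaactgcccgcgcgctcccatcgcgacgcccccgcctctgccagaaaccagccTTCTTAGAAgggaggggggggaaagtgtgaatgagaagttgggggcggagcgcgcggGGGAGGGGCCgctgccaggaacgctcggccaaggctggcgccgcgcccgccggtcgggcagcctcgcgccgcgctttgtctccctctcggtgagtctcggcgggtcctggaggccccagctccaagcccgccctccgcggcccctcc
The STAT match, TTCTTAGAA, began 154 bases before the start, and the other capitals are an NF-kappa-B match.

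**Figure D3:**
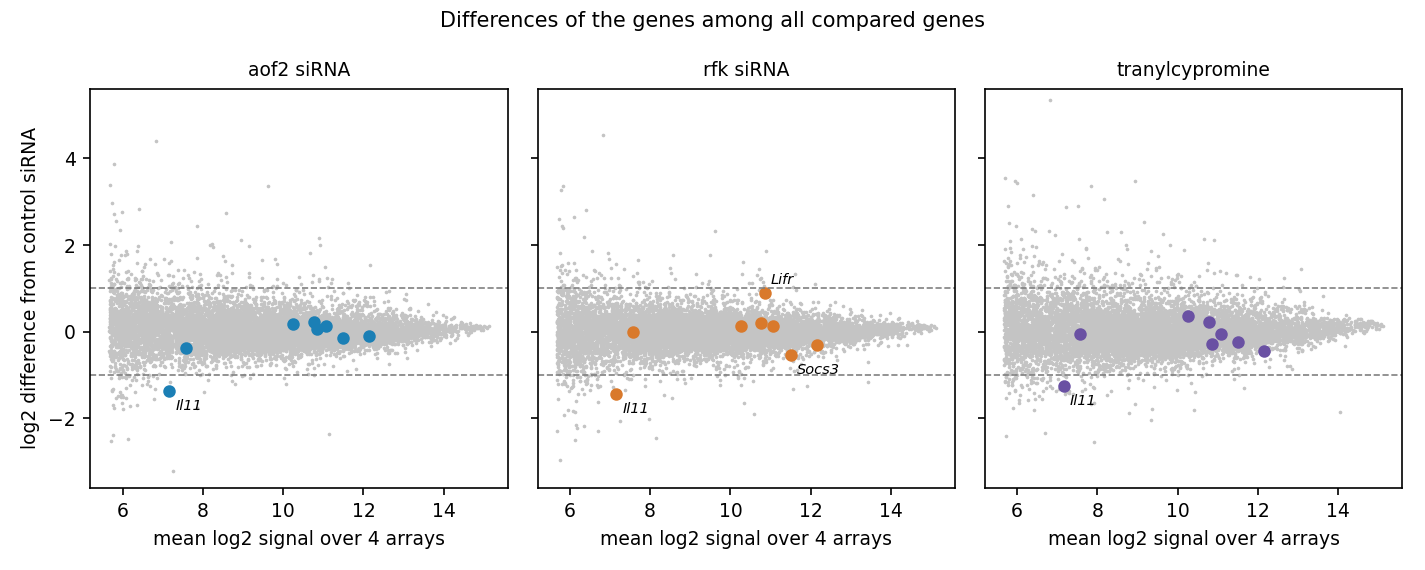
Log2 difference from control siRNA against mean log2 signal for the 10788 compared genes (grey) and the 8 genes of the family and pathway (coloured, named where the difference is at least 0.5 in size), with dashed lines at 2-fold. Il11 lies below -1 in each panel, at the edge of the cloud of genes of its brightness, and Lifr (0.90) and Socs3 (-0.54) stand apart from the other bright members in the rfk siRNA panel.

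Other genes of the pathway were read from 6 lists of ligands, receptors, kinases, inhibitors, target genes and upstream sensors. Most of the remaining family ligands and receptors were dim. Of the 4 further ligands with a probe set 1 passed the filter, Ctf1 (cardiotrophin 1), with signals of 292, 363, 252 and 301. Osm, the ligand gene for the oncostatin M receptor, had 37.5, 47.1, 5.81 and 40.5, below the filter. Of 4 further receptors 1 passed, Il6ra, the IL-6 receptor gene, with 172, 298, 173 and 207. Il6ra was thus highest with aof2 siRNA at a log2 difference of 0.80, but its probe sets ranged from -0.23 to 0.80.

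Of the 8 Janus kinases and other STATs above the filter, 0 were at least 2-fold higher in any treated array. Of all compared genes 1.61%, 0.927% and 2.23% were. At least 2-fold lower was 1 of the 8, in the rfk siRNA array alone, against 0.806% of all compared genes. That gene was Jak3, a kinase gene of lymphoid cytokine receptors, with dim signals of 79.2, 94.0, 32.4 and 74.8. The medians of the 8 were 0.19, -0.09 and 0.11. Jak1, the main kinase on gp130, had signals of 2800, 3268, 2532 and 2851. Stat5b was the highest of the list with aof2 siRNA (0.83) and tranylcypromine (0.57), although its probe sets ranged down to -0.30 and -0.32. Stat5a was the highest with rfk siRNA (0.21), with probe sets down to -0.21. The lowest were Jak2 with aof2 siRNA (-0.14) and Stat2 with tranylcypromine (-0.15).

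All 15 listed inhibitors of JAK-STAT signalling passed the filter, and at their brightest probe sets 0 were past 2-fold in any array. Of all compared genes 0.538% to 2.23% were, by array and direction. The medians of the 15 were 0.05, 0.03 and 0.02. Socs2, which restrains growth hormone signalling, came nearest, with signals of 949, 1842, 1376 and 1139, or 0.96 with aof2 siRNA, and its 3 probe sets agreed within 0.94 to 0.99. Socs2 and Socs3 thus lay on opposite sides of control in that array. Socs1, which blocks JAKs directly, was the highest of the list with rfk siRNA (0.60) and tranylcypromine (0.56), with signals of 124, 133, 189 and 183. The lowest were Ptpn2 (-0.27 with aof2 siRNA and with tranylcypromine) and Ptpn6 (-0.60 with rfk siRNA), both phosphatase genes. With aof2 siRNA the probe sets of Ptpn2 ranged up to 0.19. The probe sets of Socs4 above the filter ranged from -1.23 to 0.33 with rfk siRNA and from -1.21 to 0.50 with tranylcypromine.

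STAT3 target genes were spread over both sides of control, as all compared genes were. Of the 22 above the filter, 10, 10 and 9 lay above control, beside 49.3%, 48.5% and 48.0% of all compared genes, and the medians were -0.04, -0.04 and -0.02. At least 2-fold higher were 0, 2 and 0, beside 1.61%, 0.927% and 2.23% of all compared genes. At least 2-fold lower were 0, 0 and 1, beside 0.538%, 0.806% and 0.945%. These counts take the brightest probe set of each gene. A dimmer probe set of Ccnd1, also above the filter, stood at 1.03 with tranylcypromine. Egr1, an immediate early transcription factor gene, was the highest in each array, with signals of 722, 1315, 1827 and 1368. Fos, the partner of Jun in AP-1, was the other gene past 2-fold with rfk siRNA, at 193, 280, 436 and 209. Junb, a further AP-1 gene, was lower than control at 748, 454, 439 and 582, so the AP-1 genes of the list differed in direction. Saa3, an acute phase gene, had signals of 301, 155, 401 and 145, and was the lowest of the list with aof2 siRNA (-0.95) and tranylcypromine (-1.05) while above control with rfk siRNA (0.41). Il4ra was the lowest with rfk siRNA (-0.84).

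Genes upstream of Il6, which sense inflammatory signals or set its mRNA's stability, included 15 above the filter. At their brightest probe sets 0 were past 2-fold. Again 0.538% to 2.23% of all compared genes were, by array and direction. The medians of these 15 were 0.06, 0.03 and 0.14. A dimmer probe set of Tlr4, also above the filter, stood at 1.11 with tranylcypromine. Ptgs2, the prostaglandin synthase gene COX-2, was the lowest of the list in each array, with signals of 525, 355, 390 and 276. Zc3h12a, which encodes Regnase-1, an RNase that degrades Il6 mRNA, was the highest in each, with signals of 69.0, 110, 104 and 111. Fos, Junb and Il4ra each rest on 1 probe set above the filter, as do Egr1, Saa3, Zc3h12a, Jak3, Socs1 and Ctf1. Fos, Junb, Jak1, Osm, Ptprc, Adipoq, Cd36, Cidec, Cebpa, Pparg, Krt19 and Kdr were singled out after their values were seen. So were Mrc1, Lyz2, Adgre1, Cd68, Itgam, Col1a1, Col3a1, Pdgfra, Pdgfrb, Dlk1 and Thy1. The same holds for Csf1r, Pecam1, Tie1, Emcn, Cdh5, Tek, Krt18, Cdh1, Krt8, Socs4, Ccnd1 and Tlr4.

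**Figure D4:**
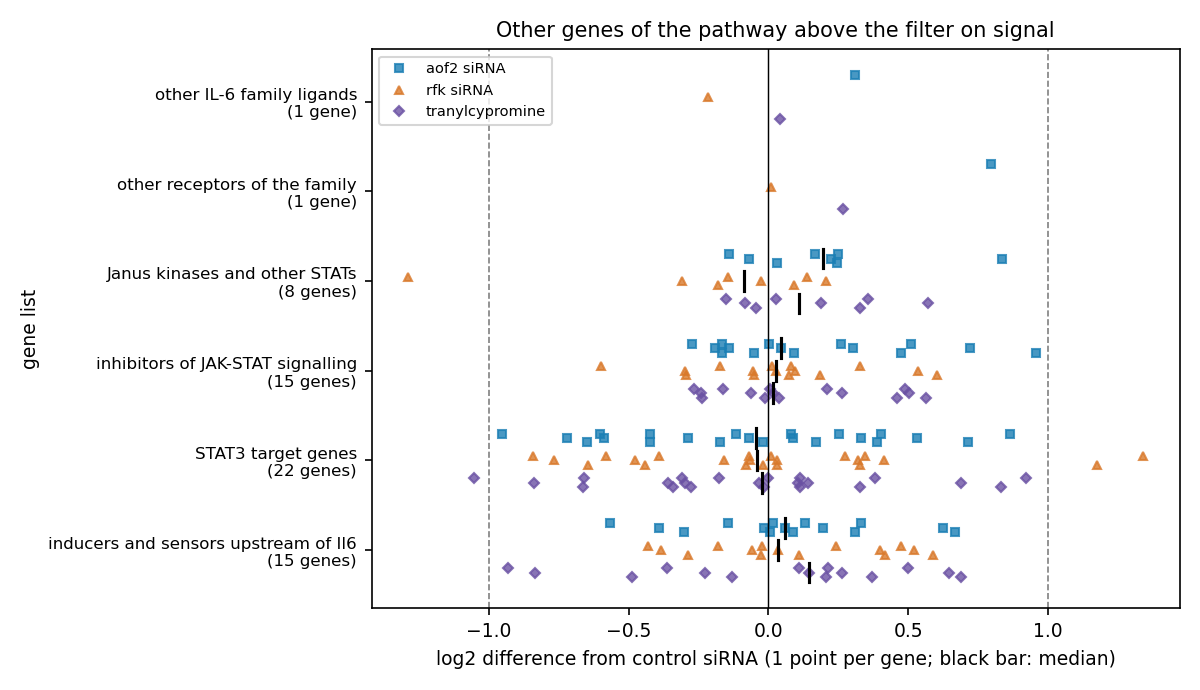
Log2 difference from control siRNA for the genes above the filter in 6 further lists, 1 point per gene and treated array, with black bars at list medians and dashed lines at 2-fold. Medians lie between -0.09 and 0.19 in the lists with more than 1 gene, and the points past 2-fold are Jak3, Egr1 and Fos with rfk siRNA and Saa3 with tranylcypromine.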

How the data were processed

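Total RNA from 4 cultures (250 ng each) was labelled with biotin and hybridised to Affymetrix 3' expression arrays, 1 per culture, per the labels' protocols. The deposited values are MAS5 signals, a linear intensity per probe set, and the submitters' processing notes name MAS5. Its version and its scaling target are, however, not given in the sources used here. Trimmed of the lowest and highest 2%, the mean signal was 500.003 on each array, so the deposited intensities had been scaled.

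Groups came from the sample descriptions. Log2 was taken without an offset. The annotation ties 34958 of 45101 probe sets to a single symbol and 932 to several, and 9211 have no name here. RefSeq's GRCm38.p6 table held the identifier for 34754 and altered 0 symbols. A gene was represented by its probe set of highest mean log2 signal, and compared where that mean reached the median of all probe sets. With 1 array per group no test was made, and a difference counted from 2-fold. No depth applies to arrays; their number limits the precision.

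The members, lists and rules were chosen with earlier results of these data known. Named genes were the members, the targeted genes, the highest and lowest of each pathway list per comparison, the brightest gene of each marker list and the 3 genes nearest in pattern to the 2 members of widest range; others are said to have been singled out. Alternatives were median centring, quantile normalization, an offset of 50, no filter, a filter at the 75th percentile, the mean of a gene's probe sets, only probe sets whose suffix marks no shared transcripts, a reference made of the remaining 3 arrays, and 1.5-fold. Promoter windows came from RefSeq. The steps were tested on simulated data. Python 3.11.15, NumPy 2.4.6, pandas 2.3.3 and matplotlib 3.10.9 were used.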

Additional observations from a re-analysis of the deposited data

How the results depend on the processing

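The Il11 count depended on the filter, the offset and the reference. At the 75th percentile of signal Il11 was no longer compared, and 0 genes of the family were at least 2-fold lower in each treated array. With the remaining 3 arrays averaged as reference the count was also 0 in each. That reference includes the other treated arrays, so a difference they share must shrink against it. With an offset of 50 it was 0 for tranylcypromine, where Il11 stood at -0.99. With no filter Lif entered, and 1 gene was at least 2-fold higher in each array; at 1.5-fold 1 was higher with rfk siRNA. With the control as reference, centring, quantile normalization and the offset gave Il11 values from -1.44 to -0.99 over the 3 comparisons, and the choices among probe sets cannot change it because it has 1. These and the choices among probe sets gave Lifr with rfk siRNA values from 0.74 to 0.91 and Socs3 with rfk siRNA values from -0.54 to -0.45. With the averaged reference, which there includes the lower rfk siRNA array, Socs3 stood at 0.10 with aof2 siRNA and 0.0042 with tranylcypromine. The medians of the compared genes of the family moved by less than the typical gap between probe sets of a gene (0.31, 0.29 and 0.34 in the 3 comparisons) under each alternative. Of 111 values of single genes that these alternatives altered at all, 9 moved by more than this gap, and so did 6 of 27 with the averaged reference. No paired analysis was possible because each group has 1 array. Dim probe sets limit Lif, Osm and Il11.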
